A study of Homo sapiens with 6 samples.

Results

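The C/D box small nucleolar RNA (snoRNA) genes of Hep G2 cells were examined in Ago2-IP RNA and in total RNA. Members were all genes whose symbol starts with SNORD, 227 of the 21863 symbols listed with an RPKM, and the abundant ones described below were selected on their RPKM in these same libraries, so their levels are a description. Hep G2 is an established human liver tumor cell line, and all libraries come from this 1 line. The cells were transfected with 5 nM of a dsRNA mimicking *miR-195* or *miR-497* and collected at 24 hours, or were not transfected, for which the labels give 0 hours. From each of these 3 conditions 1 library of RNA co-immunoprecipitated with anti-human Ago2 (Ago2-IP) and 1 of total RNA were sequenced, 6 libraries in all. No group transfected with a control dsRNA was among them, so the effect of a mimic and that of transfection itself cannot be told apart. With 1 library per group no spread between replicates exists, and no test was made. Values are compared side by side, with intervals that cover counting error only.

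C/D box snoRNAs are short stable RNAs of the nucleolus, most of them cut out of the introns of host genes. They carry a C box near the 5′ end and a D box near the 3′ end, bind fibrillarin (FBL), NOP56, NOP58 and NHP2L1, and guide 2′-O-methylation of ribosomal RNA (rRNA) and of the spliceosomal U6 RNA by base pairing. A few, such as U22 (SNORD22), act in the cleavage of the rRNA precursor, and the families SNORD113 to SNORD116 lie in imprinted gene clusters. Ago2 is the Argonaute protein that holds miRNAs and, through them, their target mRNAs, mostly in the cytoplasm.

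The sequences of 5 members that carry the contrasts described below are shown, read from GRCh37 at the positions of GENCODE release 44. SNORD17 (chr20:17943353-17943589, minus strand, within the SNX5 gene) and SNORD97 (chr11:10823014-10823155, minus strand, within EIF4G2) were far more abundant in Ago2-IP than in total RNA. SNORD33 (chr19:49993872-49993956, plus strand) is a short member that was higher in Ago2-IP with either mimic. SNORD12B (chr20:47896856-47896946, plus strand, within NCRNA00275, also named ZFAS1) was lower in Ago2-IP with *miR-195* than without transfection. SNORD23 (chr19:48259110-48259219, plus strand, within GLTSCR2) was lower in Ago2-IP than in total RNA. Capitals mark the C box word TGATGA in the first 25 bases and the last D box word CTGA in the final 20 bases.
SNORD17: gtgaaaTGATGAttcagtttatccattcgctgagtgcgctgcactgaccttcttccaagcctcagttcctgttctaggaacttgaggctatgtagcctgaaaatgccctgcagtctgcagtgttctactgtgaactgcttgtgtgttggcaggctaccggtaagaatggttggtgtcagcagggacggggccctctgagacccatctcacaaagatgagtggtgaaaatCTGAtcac
SNORD97: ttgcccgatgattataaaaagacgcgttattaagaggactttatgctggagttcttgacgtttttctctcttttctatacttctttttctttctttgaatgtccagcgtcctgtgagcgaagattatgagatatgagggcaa
SNORD33: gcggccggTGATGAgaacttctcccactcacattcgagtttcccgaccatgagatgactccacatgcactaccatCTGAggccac
SNORD12B: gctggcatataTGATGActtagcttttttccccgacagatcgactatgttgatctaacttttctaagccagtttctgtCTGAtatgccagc
SNORD23: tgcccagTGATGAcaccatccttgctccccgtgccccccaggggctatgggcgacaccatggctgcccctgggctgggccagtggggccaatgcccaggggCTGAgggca
A usable GRCh37 position was found for 179 members. TGATGA was present in 131 of them (73.2%), CTGA in 176 (98.3%) and both in 131, on the RNA strand alone. In stretches of the same length on that strand, ending 50 bases upstream of each gene, 2 held the first word, 36 the second and none held both. SNORD97 held neither exact word in its window. The seeds of both mimics, bases 2 to 8 of the mature RefSeq sequences, were identical and are given in capitals.
hsa-miR-195-5p: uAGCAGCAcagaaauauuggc
hsa-miR-497-5p: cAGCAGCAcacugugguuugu
Their reverse complement TGCTGCT occurred in 0 of the 179 snoRNA sequences, a count that has no background beside it. Of the 156 members above 0, only 113 had a position and were searched.

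RPKM is a read number divided by gene length and by the number of mapped reads, so a value is a share of a library and not an absolute amount. More RNA of a gene and less RNA of the others cannot be told apart by it. From the steps between the RPKM of short genes, the number of mapped reads was inferred as 16829846, 13616342 and 10653780 for Ago2-IP of non-transfected, *miR-195* and *miR-497* cells and as 24734647, 29341853 and 30968417 for total RNA. Read numbers followed for all 156 members above 0. The hepatocyte genes AFP and APOB, at an RPKM of at least 1042 in total RNA, were abundant, as the label of the line says, whereas TTR was low at no more than 4.81, and PTPRC, CD3E and HBB of blood cells were listed at 0 in all libraries. Across all genes, the ratio of Ago2-IP to total RNA had a median of 0.326 in non-transfected, 0.469 in *miR-195* and 0.260 in *miR-497* cells, the background for the snoRNA genes. Values given in threes below follow this order of conditions.

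In the Ago2-IP libraries 147, 150 and 146 of the 227 C/D box genes were above 0 (non-transfected, *miR-195* and *miR-497*), compared with 123, 131 and 133 in total RNA, although the Ago2-IP libraries were sequenced less deeply. Of all members, 117 were above 0 in all 6 libraries, 71 in none, 16 in Ago2-IP only and 0 in total RNA only. Of all 21863 symbols, 13298 were above 0 in all 6 libraries. How many of them were above 0 in 1 kind of library only was not counted, so the 16 and 0 have no background. Of 100 genes with symbols starting SNORA, 88, 92 and 88 were above 0 in Ago2-IP and 81, 78 and 81 in total RNA. Above 0 in all 3 Ago2-IP libraries and in no total RNA library were SNORD116-14, SNORD116-18, SNORD116-2, SNORD121A, SNORD56B and SNORD90, 6 members with at most 11 reads in a library. For a gene of 75 bases, 0 reads allow an RPKM of up to 3.75 in the shallowest library and of 1.29 in the deepest, taking 3 reads as the limit.

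Detection followed gene families. Of the 136 members outside the imprinted families, 133 were above 0, the exceptions being SNORD123, SNORD32B and SNORD96B. All 22 SNORD116 genes were above 0 in at least 1 library, 5 of them in all 6. Their summed reads were 65, 86 and 52 in Ago2-IP and 11, 36 and 28 in total RNA, and no single SNORD116 gene had an RPKM above 12. By contrast, none of the 7 SNORD113 and none of the 31 SNORD115 genes was above 0, and 1 read on SNORD114-30 was the sole read on the 31 SNORD114 genes. Copies within these families resemble each other. Every 36-base word occurred once in the genome for 7 of 7 positioned SNORD113 genes and 27 of 29 SNORD114 genes, but for only 4 of 28 SNORD115 and 4 of 17 SNORD116 genes, and how reads with several places were counted is not given in the sources used here. The zeros of SNORD115 and the values of single SNORD116 genes are uncertain for this reason.

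C/D box genes took 4.398%, 5.10% and 7.27% of the summed RPKM of the Ago2-IP libraries, against 0.360%, 0.339% and 0.341% in total RNA. The summed RPKM of all genes was itself smaller in Ago2-IP (75019, 116070 and 67345) than in total RNA (319833, 311114 and 333421). This widens the contrast of the shares. In reads, C/D box genes had 386, 881 and 656 RPM (reads scaled to the mapped reads of the library) in Ago2-IP and 91.2, 83.9 and 91.2 RPM in total RNA. A single gene made up much of the Ago2-IP share. SNORD17 alone held 23.9%, 32.7% and 27.8% of the RPKM of all C/D box genes, and the 10 highest members together held 44.1%, 68.3% and 57.7%. In total RNA no member stood out in this way, and the highest, SNORD58B or SNORD80, held between 5.21% and 6.41%.

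**Figure D1:**
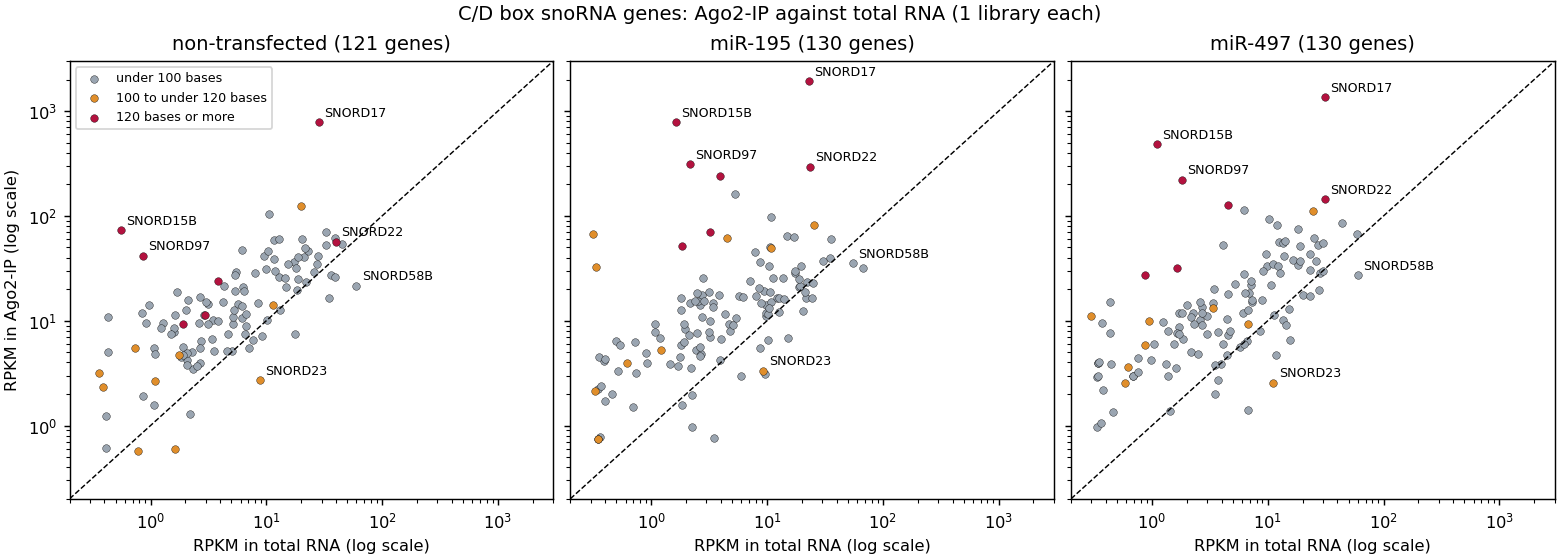
RPKM of C/D box snoRNA genes in Ago2-IP (vertical, log scale) against total RNA (horizontal, log scale) in each condition, 1 library each, coloured by gene length, with a dashed line of equal RPKM. Most of the 121, 130 and 130 genes above 0 in both libraries lie above the line, with SNORD17 highest, while SNORD58B and SNORD23 lie below it.

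Most C/D box genes had a higher RPKM in Ago2-IP than in total RNA, while most other genes had a lower one. Without transfection 75 of the 121 genes above 0 in both libraries were at least 2-fold higher in Ago2-IP, compared with 6.69% of all genes. In *miR-195* cells the number was 81 of 130 (background 9.05%), and *miR-497* cells had 89 of 130 (background 7.07%). At least 2-fold lower were 5 members without transfection, where 69.1% of all genes were. In *miR-195* cells this held for 6 members (background 53.7%), and for 5 in *miR-497* cells (background 73.1%). The median ratio of Ago2-IP to total RNA over the members was 2.35, 2.72 and 3.30. Of the 117 members above 0 in all 6 libraries, 77 had every Ago2-IP value above every total RNA value (6.05% of all such genes), and 2, SNORD58B and SNORD23, had every value below (77.0% of all such genes). A counting interval of the ratio was computed for the 149, 151 and 149 members with reads in at least 1 of the 2 libraries. It lay wholly above 1 for 72, 67 and 75 of them and wholly below 1 for 4, 3 and 3. Dividing each library by the median RPKM of genes above 0 in all 6 moved the ratios up by a log2 of 1.64, 1.12 and 2.01, and the interval then lay below 1 for no member.

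Other short RNA genes shared this direction. The H/ACA box genes (symbols starting SNORA), which guide pseudouridylation, had median ratios of 2.94, 11.9 and 6.25 over 79, 77 and 78 genes. SCARNA genes, the guides of the Cajal body, had 9.90, 25.9 and 15.6 over 16, 15 and 18 genes, and miRNA genes had 1.76, 2.15 and 2.91 over 41, 57 and 45 genes. The kit was used with poly-A selection for some samples and without it for others, and which were which is not stated plainly in the sources used here. By the methods of the study, far less RNA went into the Ago2-IP libraries than into those of total RNA. Selection and fragment size may differ as well. The part of input, selection and fragment size in these ratios cannot be told apart from that of the immunoprecipitation.

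SNORD17, a predicted guide of 28S rRNA methylation and with 237 bases the longest member, had an RPKM of 787, 1936 and 1358 in Ago2-IP of non-transfected, *miR-195* and *miR-497* cells. In total RNA its RPKM was 28.5, 22.9 and 31.1, so all Ago2-IP values lay above all total RNA values. Its 3 ratios were 27.6 (interval 23.6 to 32.5), 84.7 (72.3 to 99.7) and 43.7 (38.2 to 50.2). It ranked 2nd among all genes in each Ago2-IP library.

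SNORD15B, a 28S rRNA guide, was all but absent from total RNA, with 2, 7 and 5 reads (RPKM 0.554, 1.63 and 1.11). In Ago2-IP it had 180, 1554 and 755 reads (RPKM 73.3, 782 and 485). The first ratio, 132 (interval 36.1 to 1101), rests on 2 total RNA reads, and the others were 478 (232 to 1192) and 439 (187 to 1356). SNORD97, which guides methylation of the elongator methionine tRNA, showed the same order of libraries, with 100, 604 and 335 reads in Ago2-IP against 3, 9 and 8 in total RNA. Its ratios were 49.0 (16.3 to 242), 145 (75.7 to 318) and 122 (61.1 to 284). SNORD10, a guide of U6 RNA, had an RPKM of 24.1, 243 and 128 in Ago2-IP against 3.82, 3.91 and 4.58 in total RNA.

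**Figure D2:**
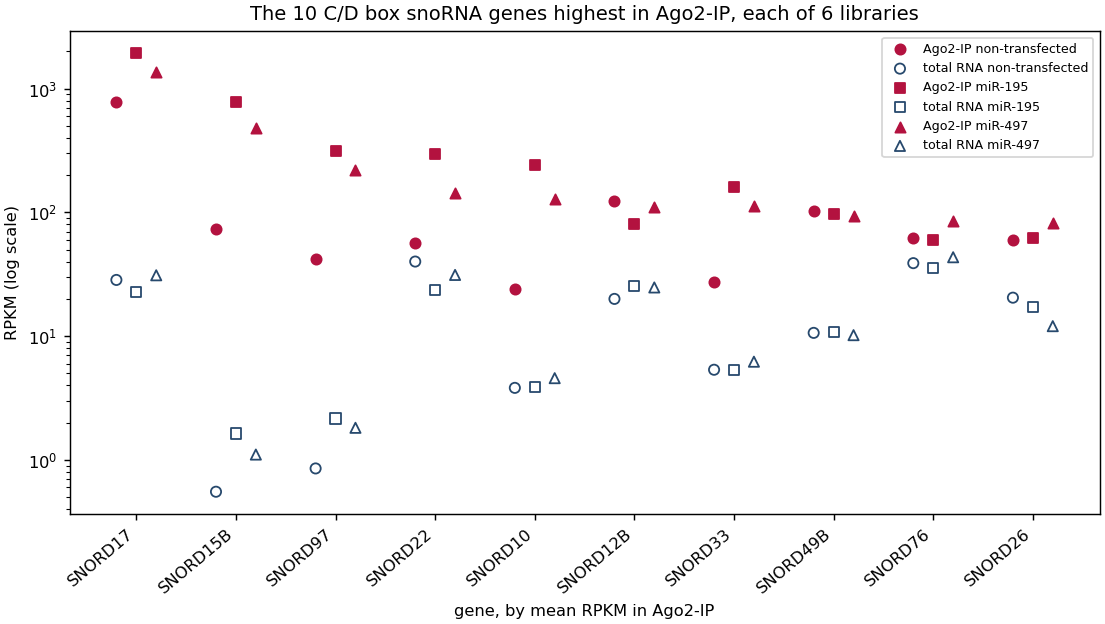
RPKM (log scale) of the 10 C/D box snoRNA genes with the highest mean RPKM in Ago2-IP, in each of the 6 libraries, filled symbols for Ago2-IP and open symbols for total RNA. In all 10 genes the lowest Ago2-IP value lies above the highest total RNA value. SNORD15B, SNORD97, SNORD10, SNORD17, SNORD22 and SNORD33 are lowest in Ago2-IP without transfection. SNORD49B, SNORD76 and SNORD26 differ less between the Ago2-IP libraries than these.

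SNORD22, which acts in 18S rRNA processing, was abundant in total RNA, with an RPKM of 40.1, 23.5 and 31.3. In Ago2-IP its RPKM was 56.6, 296 and 145. Without transfection its ratio was thus only 1.41 (interval 1.09 to 1.83), while the *miR-195* cells had 12.6 (9.99 to 15.95) and the *miR-497* cells 4.62 (3.67 to 5.85). SNORD33, an 18S rRNA guide with 83 bases behind its RPKM and 85 at its GRCh37 position, had 27.2, 160 and 113.1 in Ago2-IP and 5.36, 5.34 and 6.22 in total RNA.

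A steadier member was SNORD49B, a 28S rRNA guide, at 103, 96.6 and 93.9 in Ago2-IP and 10.6, 10.8 and 10.2 in total RNA. Its ratios of 9.70 (interval 3.76 to 31.8), 8.98 (3.60 to 26.8) and 9.20 (3.53 to 28.2) were close to each other, but the intervals are wide. They rest on 5, 6 and 6 reads in total RNA. These are the smallest numbers with the observed ratios, and the true numbers may be larger. SNORD26 had ratios of 2.94, 3.63 and 6.85, and SNORD76 had 1.58, 1.69 and 1.97. Among the 10 highest members in total RNA, SNORD58B led with an RPKM of 60.03, 55.3 and 59.7, and SNORD80, SNORD76, SNORD22, SNORD79 and SNORD47 followed in the mean.

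SNORD58B and SNORD23 stood at the other end. SNORD58B, a 28S rRNA guide, had an RPKM of 21.6, 35.6 and 27.0 in Ago2-IP, under the 3 values in total RNA given above. Its ratio was 0.360 (interval 0.220 to 0.567), 0.644 (0.420 to 0.964) and 0.453 (0.264 to 0.738). SNORD23 had just 5, 5 and 3 reads in Ago2-IP against 24, 30 and 38 in total RNA, with ratios of 0.306 (0.0912 to 0.819), 0.359 (0.109 to 0.935) and 0.229 (0.0453 to 0.723). After median scaling none of these intervals stayed below 1, and that of SNORD58B with *miR-497* lay above 1.

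C/D box genes differed from the genes that hold them. For 159 members a host gene in the table was found, 63 hosts in all, of which 121 members were checked for strand on GRCh37. A member's log2 ratio of Ago2-IP to total RNA was above that of its host in 101 of 103, 104 of 108 and 106 of 108 pairs. The median log2 ratio was 1.18, 1.21 and 1.54 for the members and -2.15, -1.71 and -2.33 for their hosts. In Ago2-IP the RPKM of a member was a median of 0.435, 0.379 and 0.505 times that of its host, and in total RNA 0.0384, 0.0409 and 0.0366 times. Members of 1 host come from 1 primary transcript and are not independent.

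**Figure D3:**
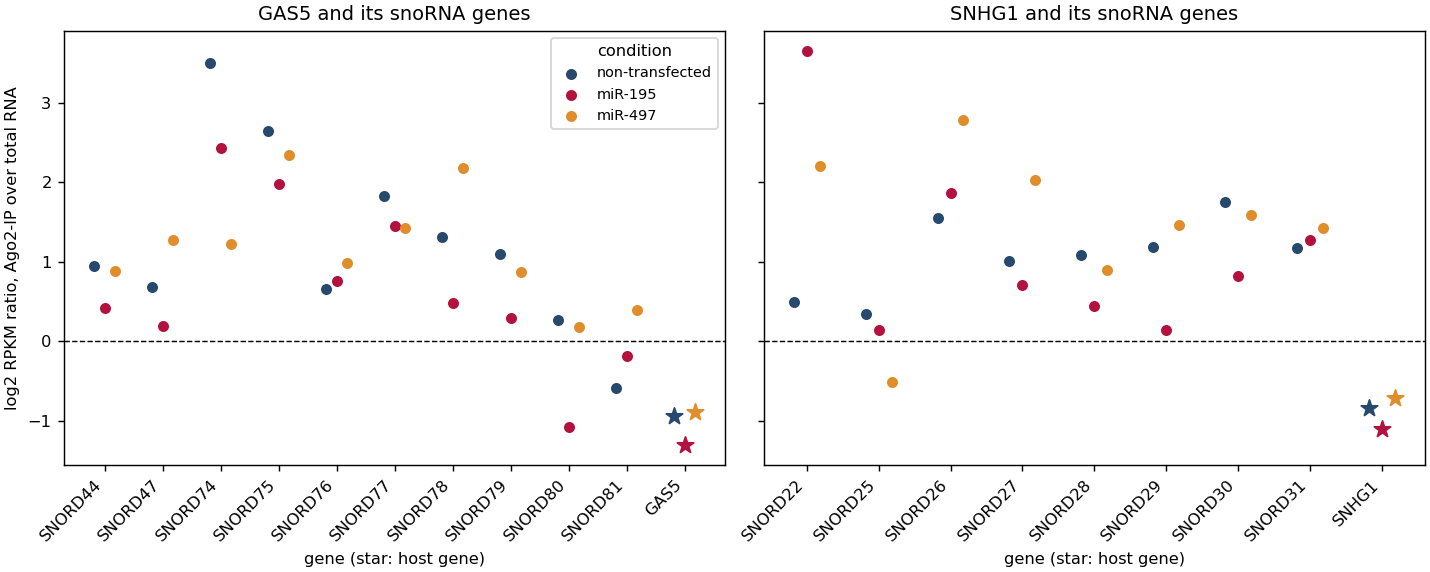
Log2 ratio of RPKM in Ago2-IP to total RNA (vertical) of the 10 members in GAS5 and the 8 in SNHG1, with each host as a star, coloured by condition, 1 library each. Every member lies above its host in each condition, and SNORD22 with miR-195 lies highest in SNHG1.

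GAS5 and SNHG1 are long noncoding RNAs whose introns hold many snoRNAs. GAS5 itself had an RPKM of 60.4, 37.4 and 54.6 in Ago2-IP and 116.04, 92.2 and 101 in total RNA, and its 10 members had a median RPKM of 35.3, 22.04 and 43.3 in Ago2-IP and 27.1, 20.2 and 23.3 in total RNA. Within this host, whose members come from 1 transcript, the log2 ratios of non-transfected cells ran from -0.59 for SNORD81 to 3.49 for SNORD74. The interval of the SNORD81 ratio spans 1 (0.365 to 1.17), and that of SNORD74 (3.40 to 58.6) rests on 3 total RNA reads. The *miR-195* cells had log2 ratios from -1.08 for SNORD80 to 2.43 for SNORD74. The *miR-497* cells had 0.18 for SNORD80 up to 2.35 for SNORD75. There SNORD74 was at 1.22, and the interval of its ratio spans 1 (0.798 to 6.54). SNHG1 had 79.1, 42.8 and 65.6 in Ago2-IP and 141, 92.3 and 108 in total RNA, and its 8 members had medians of 42.6, 21.1 and 46.8 and of 21.1, 17.4 and 15.96. With *miR-195* the RPKM of SNHG1 and of 6 of its members in Ago2-IP was below that of non-transfected cells, the exceptions being SNORD26 (60.2 and 62.7) and SNORD22 (56.6 and 296).

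With *miR-195* the C/D box genes of Ago2-IP moved in both directions, unlike genes in general, most of which were higher. Of 141 members above 0 in both libraries, 24 were at least 2-fold higher than in non-transfected cells, against 23.7% of all genes, and 22 were at least 2-fold lower, against 2.58% of all genes. Their median log2 difference was 0.03, compared with 0.48 over all genes. The counting interval lay above 1 for 17 members and below 1 for 15. After scaling each library by its median RPKM, which lowers all ratios by a log2 of 0.52, 14 of the 17 remained above 1 and all 15 remained below. With members that newly fell below 1, the scaled interval lay above 1 for 14 members and below 1 for 37. The balance of rises and falls thus depends on the scaling.

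All 7 members of at least 120 bases were higher, each with an interval above 1. SNORD15B was 10.7-fold higher (interval 9.14 to 12.5), SNORD10 10.1-fold (7.69 to 13.4), SNORD97 7.47-fold (6.03 to 9.32) and SNORD94, a U6 guide, 6.23-fold (4.07 to 9.89). SNORD15A was 5.54-fold higher (3.496 to 9.12), SNORD22 5.22-fold (4.27 to 6.43) and SNORD17 2.46-fold (2.36 to 2.57). Of the 12 members of 100 to under 120 bases, SNORD9 and SNORD8, both U6 guides in CHD8, SNORD89 and SNORD16 had an interval above 1. SNORD8 had 10 reads without transfection and 100 with *miR-195*, SNORD9 had 4 and 46, and SNORD89 had 9 and 96. Among 137 shorter members 6 had an interval above 1, SNORD33 (5.89-fold, 4.13 to 8.59), SNORD46, SNORD104, SNORD35A, SNORD116-23 and SNORD116-24, the last 2 with at most 12 reads. Under median scaling the intervals of SNORD104, SNORD35A and SNORD116-23 spanned 1.

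The 15 members whose interval lay below 1 were SNORD45A, SNORD45B, SNORD101, SNORD100, SNORD73A, SNORD11, SNORD65, SNORD79, SNORD80, SNORD27, SNORD28, SNORD29, SNORD30, SNORD88B and SNORD12B, of which SNORD12B alone has 100 bases or more by the length behind its RPKM. SNORD45A, an 18S rRNA guide in RABGGTB, had Ago2-IP values of 60.8, 25.4 and 58.1 RPKM. In total RNA it had 12.995, 11.4 and 14.2, so only the *miR-195* Ago2-IP library was low (0.417-fold, 0.264 to 0.642). SNORD45B was at 31.8, 12.4 and 38.3 in Ago2-IP, and SNORD101, in RPS12, at 30.9, 12.1 and 34.7. SNORD12B, a 28S rRNA guide, had 123, 81.3 and 111 in Ago2-IP and 20.02, 25.5 and 24.8 in total RNA. Its *miR-195* ratio in Ago2-IP was 0.658 (0.520 to 0.830), while that of *miR-497* spans 1 (0.715 to 1.13). In total RNA its intervals span 1 with *miR-195* (0.882 to 1.85) and with *miR-497* (0.859 to 1.80).

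**Figure D4:**
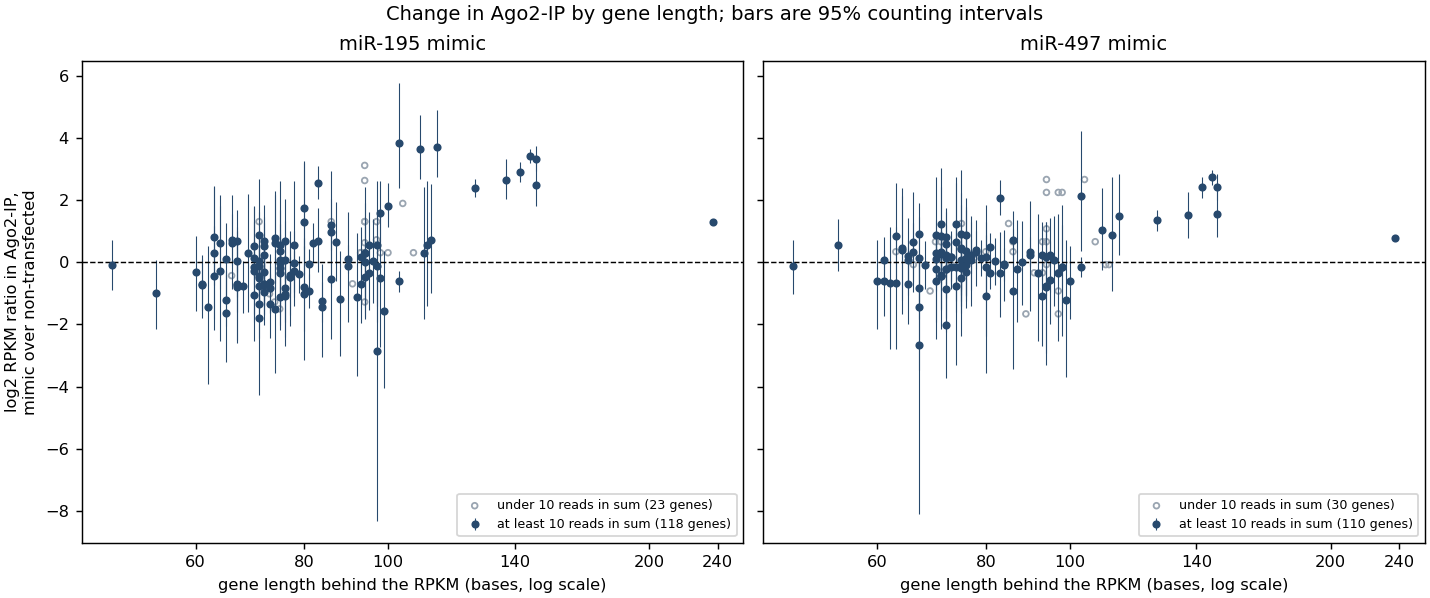
Log2 ratio of RPKM in Ago2-IP, mimic over non-transfected (vertical), against gene length (horizontal, log scale) for each mimic, with 95% counting intervals as bars for members with at least 10 reads in the sum of both libraries and open circles for the others. All 7 members of 120 bases or more lie above 0 with either mimic, while shorter members lie on both sides. Both panels share the non-transfected library.

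The difference with *miR-195* went with gene length, taken here and above as the length behind the RPKM. By their GRCh37 positions, SNORD12B (91 bases), SNORD16 (99) and SNORD127 (86) would leave the class of 100 to under 120 bases and SNORD46 (104) would enter it. The median log2 difference was -0.38 for the 22 members of 60 to 69 bases and -0.37 for 50 of 70 to 79 bases. It was 0.63 for 17 of 80 to 89 bases and 0.31 for 32 of 90 to 99 bases. Members of 100 to under 120 bases had 0.72 (11 members) and those of at least 120 bases 2.64 (7 members), so the rise was not steady. Across 141 members the Spearman correlation of length and log2 ratio was 0.42, a description within 1 pair of libraries. Over the 84 H/ACA box genes of 120 to 300 bases, the median was 1.95, so the long C/D box genes were not alone in it. In summed reads the 7 long members had 3648, 9635 and 5005 in Ago2-IP and 328, 300 and 395 in total RNA, a ratio per mapped read of 16.3, 69.2 and 36.8. For the members of 60 to 69 bases this ratio was 1.49, 1.35 and 1.38. SNORD17 alone gave 3139, 6247 and 3429 of the Ago2-IP reads of the long members. It also gave 167, 159 and 228 of their total RNA reads, so the sums of the long members mostly reflect 1 gene. Length, RNA fragment size and library were not varied separately, and the part of each was not tested.

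**Figure D5:**
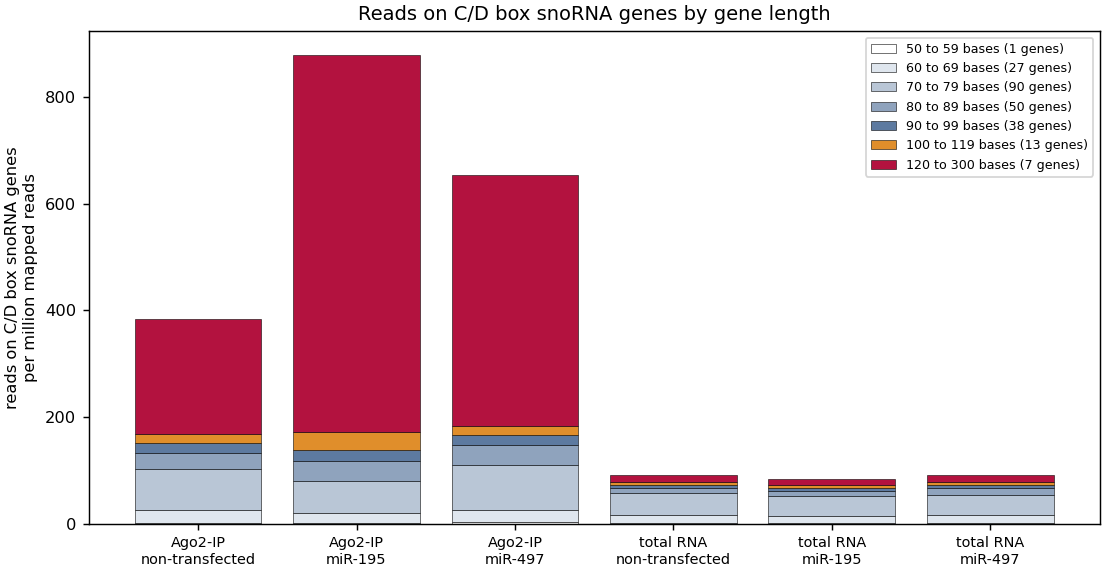
Reads on C/D box snoRNA genes in RPM (vertical) in each of the 6 libraries, stacked by gene length, with the number of genes per class in the legend and 1 member under 50 bases not drawn. The 7 genes of 120 bases or more form most of each Ago2-IP bar and a small part of each total RNA bar. SNORD17 holds most of the reads of these 7 genes.

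With *miR-497*, 20 of 140 members in Ago2-IP were at least 2-fold higher than without transfection (background 3.48%) and 8 were at least 2-fold lower (background 6.27%). The same non-transfected libraries serve both mimics, so these values are not independent of those for *miR-195*. The median log2 difference was 0.14, against -0.23 over all genes, and the interval lay above 1 for 11 members and below 1 for 2. All 7 long members were again above 1, from 1.73-fold (1.64 to 1.81) for SNORD17 to 6.63-fold (5.62 to 7.84) for SNORD15B, with SNORD10 at 5.32-fold (3.97 to 7.22) and SNORD97 at 5.29-fold (4.22 to 6.68). SNORD33 was 4.16-fold higher (2.83 to 6.21), and SNORD9, SNORD89 and SNORD76 made up the 11, the interval of SNORD76 starting just above 1. SNORD4A, in RPL23A, with 32 reads without transfection and 5 with *miR-497* (0.247-fold, 0.0751 to 0.638), and SNORD88B, with 9 and 0, were the 2 below 1. SNORD45A and SNORD45B, low with *miR-195*, were at 58.1 and 38.3, near their values without transfection. The difference between the mimics was not tested.

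In total RNA few C/D box genes had a counting interval away from 1. With *miR-195*, 12 of 120 members were at least 2-fold higher (background 5.81%) and 15 at least 2-fold lower (background 3.2%), and with *miR-497* these numbers were 11 (background 6.67%) and 11 of 121 (background 2.11%). Most rested on few reads, and the interval lay above 1 for 3 and 4 members and below 1 for 3 and 4. The median log2 difference was -0.14 for *miR-195* (all genes 0.02) and 0.02 for *miR-497* (all genes 0.09). The long members did not move as in Ago2-IP. SNORD17 had log2 differences of -0.32 and 0.12, and SNORD22 was lower with *miR-195* (0.587-fold, 0.441 to 0.778). Fewer cells that hold an RNA and less of it per cell cannot be told apart in these values.

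Among the members named for an interval away from 1, a pair in GAS5 had ratios on opposite sides of 1 with *miR-195*. SNORD80, a 28S rRNA guide, was at 44.98, 67.7 and 59.6 in total RNA, and its *miR-195* ratio was 1.505 (interval 1.13 to 2.01). Its *miR-497* ratio was 1.32, with an interval that spans 1 (0.994 to 1.77). SNORD81, also a 28S rRNA guide, was at 39.5, 21.4 and 23.3, with ratios of 0.542 (0.321 to 0.900) and 0.590 (0.358 to 0.960). The other members with an interval away from 1 were SNORD83A and SNORD116-4 above and SNORD36A below with *miR-195*, and SNORD104, SNORD68, SNORD83A and SNORD55 above and SNORD26, SNORD27 and SNORD82 below with *miR-497*. SNORD83A rested on 2 reads without transfection.

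The genes of the snoRNA proteins and of snoRNA assembly were lower in Ago2-IP than in total RNA, unlike most C/D box genes. Of a list of 20 (FBL, NOP56, NOP58, NHP2L1, RRP9, the assembly factors NUFIP1, ZNHIT3, ZNHIT6, RUVBL1, RUVBL2, PIH1D1 and RPAP3, and 8 genes of transport and processing), all 20 were at least 2-fold lower in Ago2-IP than in total RNA in each condition, where 69.1%, 53.7% and 73.1% of all genes were. Their median log2 ratios were -2.64, -2.27 and -2.98, against -1.62, -1.09 and -1.94 over all genes. FBL, the methyltransferase, had an RPKM of 10.6, 19.0 and 7.57 in Ago2-IP and 139, 133 and 165 in total RNA. In Ago2-IP 1 of the 20, the helicase RUVBL1, was at least 2-fold higher with *miR-195* (log2 1.14), where 23.7% of all genes were, and none was lower. With *miR-497* in Ago2-IP, and with either mimic in total RNA, none of the 20 passed 2-fold.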

How the data were processed

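RNA from Ago2-IP and total RNA of Hep G2 cells was sequenced as 36-base single reads, 1 library per condition and kind. The authors aligned reads to hg19 with ELANDv2 and computed RPKM per gene with CASAVA 1.7, and the deposited table holds these RPKM values. How reads with several places or from either strand were counted is not given in the sources used here, so reads of a snoRNA and of the host intron around it may not be told apart.

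The table had 21891 lines, and 28 symbols listed more than once were averaged (0 of them SNORD). Members were all symbols starting with SNORD. The members and gene lists were chosen with earlier results of these data known. Ratios were taken on RPKM above 0 in both libraries, without a pseudocount, and a member was counted as higher or lower at 2-fold. Genes were named in the text by the size of their RPKM or ratio, by an interval away from 1, or as part of a host or family.

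Since RPKM steps are whole reads, mapped reads were inferred from short genes with RefSeq lengths. Between 90.1% and 93.0% of the values came out whole within 0.05 of a read. For 12 members another length within 20 bases was needed, and the reads of SNORD49B, SNORD58C and SNORD81 are the smallest with the observed ratios. Intervals are exact conditional (Clopper-Pearson) 95% intervals of the ratio of reads, cover counting error only, and are no replicate error. They were computed for members with reads in at least 1 of the 2 libraries. Other genes were given no interval, so counts of intervals have no share over all genes beside them. With 1 library per group no test was made. The recovery of reads was tested on simulated data. Sequences came from GRCh37 with GENCODE release 44 positions, and miRNAs from RefSeq (GRCh38.p14). Words of 36 bases were searched on both strands of the genome. Python 3.11.15, numpy 2.4.6, pandas 2.3.3, scipy 1.17.1, numba 0.67.0 and matplotlib 3.10.9 were used. Alternatives were pseudocounts of 0.1 and 1, an RPKM of at least 1, median scaling, a 4-fold limit, members with at least 90% of words found once, repeated lines kept apart and the most abundant member left out.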

Additional observations from a re-analysis of the deposited data

How the results depend on the processing

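Of 161 recomputed values, 112 stayed within the limits set for them, 45 moved and 4 changed sign. No paired test was made, as no test of any kind was made. The Ago2-IP and total RNA libraries of a condition are set against each other as ratios, and with 1 library per group no replicate could be left out. The alternative with at least 10 reads in the sum of both libraries was chosen after seeing the data. Where no construction is named, the cause was not tested. Without the most abundant member, the C/D box share of summed RPKM in non-transfected, *miR-195* and *miR-497* cells was 3.38%, 3.49% and 5.36% in Ago2-IP and 0.342%, 0.318% and 0.323% in total RNA. For Ago2-IP over total RNA, the median log2 was 2.87, 2.56 and 3.74 after median scaling, 1.04 without transfection and 1.41 with *miR-497* at a pseudocount of 1, and 1.37 with *miR-497* at an RPKM of at least 1. Members at least 2-fold higher without transfection numbered 115 after scaling, those past 4-fold were 37, 52 and 56, and 58 with *miR-497* among members with mostly unique words, where fewer were compared. In Ago2-IP with *miR-195* the median log2 of 0.03 became -0.095 at an RPKM of at least 1, -0.49 after scaling and -0.10 with at least 10 reads, so its sign is not settled. Past 4-fold were 12 higher and 1 lower, and 45 were lower after scaling and 14 among unique words. With *miR-497* in Ago2-IP the median was 0.41 after scaling, 12 were higher with at least 10 reads and 10 past 4-fold, and 15 were lower at a pseudocount of 0.1, 5 after scaling and 2 past 4-fold. In total RNA with *miR-195*, 22 were higher at a pseudocount of 0.1, 6 each at a pseudocount of 1, an RPKM of at least 1 or at least 10 reads, and 1 past 4-fold, and 6, 5, 4 and 2 were lower at a pseudocount of 1, an RPKM of at least 1, at least 10 reads and 4-fold. With *miR-497* in total RNA the median became -0.085 after scaling, 23, 7, 5, 7 and 1 were higher at pseudocounts of 0.1 and 1, an RPKM of at least 1, at least 10 reads and 4-fold, and 3, 4, 3 and 1 were lower under the last 4 of these. Keeping repeated lines apart changed no value of a member. In total RNA SNORD15B and SNORD97 had under 10 reads in each library, which leaves their ratios with wide intervals.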
